A study of Canis lupus familiaris with 13 samples.

Results

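The genes described here are 9 enzymes and receptors that handle extracellular ATP and adenosine: ENTPD1, NT5E, P2RX7, ADORA2A, ADORA2B, ADA, DPP4, PNP and ADK. They were chosen by symbol from a table of 43427 genes, and all 9 were in the table and passed the filter on low counts, as did 20118 genes in all. The choice used a measured value, namely that ADA was higher in late biopsies than before treatment in every tumor. The late levels of the members set against those before treatment are therefore given as a description, with no test.

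ATP leaks from stressed and dying cells and is sensed by receptors such as P2RX7 as a danger signal. Surface enzymes strip its phosphates, ENTPD1 (CD39) down to AMP and NT5E (CD73) from AMP to adenosine, and adenosine acting on ADORA2A and ADORA2B restrains T cells, macrophages and neutrophils. Adenosine is cleared by ADA, which deaminates it to inosine, and by ADK, which returns it to AMP inside cells, while PNP splits inosine further.

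The RNA came from biopsies of 4 tumors in 3 companion dogs, each injected with IMAX, a nanoparticle of a lithocholic acid-modified polyethyleneimine that carries paclitaxel and a cyclic dinucleotide, an agonist of the sensor STING. Dog RV had a soft tissue sarcoma, dog CL a cranial and a caudal mammary carcinoma, and dog BM a left caudal mammary carcinoma, and no dog was left untreated. The 4 libraries called before were taken ahead of treatment. The 4 early libraries were taken 2 days (RV) or 1 week (both CL tumors and BM) after the second dose, and the 5 late libraries 2 weeks after a further dose (RV, at the injection site and at an adjacent site) or 1 month (CL) or 3 weeks (BM) after the second dose. Each tumor had 1 library per time apart from the late RV sites, so a difference within a tumor has no replicate check. The p-values below measure mainly the spread between tumors, of which both CL tumors share a host. Both late RV sites were fitted as separate libraries, so spread within 1 mass enters the p-values as well. Interval, dose number, dog and tumor type vary together and cannot be told apart.

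The libraries held 11622444 to 29931125 counts. EPCAM, an epithelial surface marker, was at 11.5 to 460 CPM (counts scaled to library sizes adjusted by TMM) in the mammary libraries and at 1.02 to 13.2 CPM in the RV libraries. In BM it went from 460 CPM before through 122 CPM early to 11.5 CPM late. The summed epithelial markers, a list that holds more genes, did not separate RV from the mammary tumors. In RV they were at 983 CPM before, 133 CPM early and 831 (injection site) and 410 CPM (adjacent site) late. Before, early and late they were at 329, 709 and 413 CPM in CL caudal, where EPCAM was lower early than before. In the same order they were at 5060, 3070 and 3730 CPM in CL cranial and 3320, 2190 and 199 CPM in BM. The 2-day RV library stood apart. Summed markers of the epidermis were at 2120 CPM there and at 150 CPM or less in every other library, neutrophil markers at 7150 CPM against 2190 CPM or less, and long noncoding RNA genes took 5.42% of its counts against 1.74% or less. The study's pathology of that biopsy described inflamed dermis in which tumor cells could not be identified with certainty. Macrophage markers summed to 299 to 742 CPM before, 1220 to 3450 CPM early and 367 to 1370 CPM late, with 10 of 10 genes higher early in the fit. In a bulk sample, fewer cells of a type and less RNA per cell cannot be told apart.

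Early after treatment, ADA, ENTPD1, ADORA2A and P2RX7 had the highest fitted values against before and ADK the lowest. No p is given for ADA, whose levels before treatment entered the choice of genes. Of the other 8 genes, 4 had an unadjusted p under 0.05 in edgeR's quasi-likelihood test, ENTPD1, ADORA2A and P2RX7 on the higher side and ADK on the lower. None of the 8 passed the adjusted threshold of 0.05 over all genes, where only 0.00497% of genes (1 of 20118) did. The unadjusted share over all genes was 10.9%. By DESeq2, where 4.75% of genes passed, 1 of the 8 did, ADORA2A. The median fitted log2 fold change of the 9 genes was 0.42, beside 0.25 over all tested genes.

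**Figure D1:**
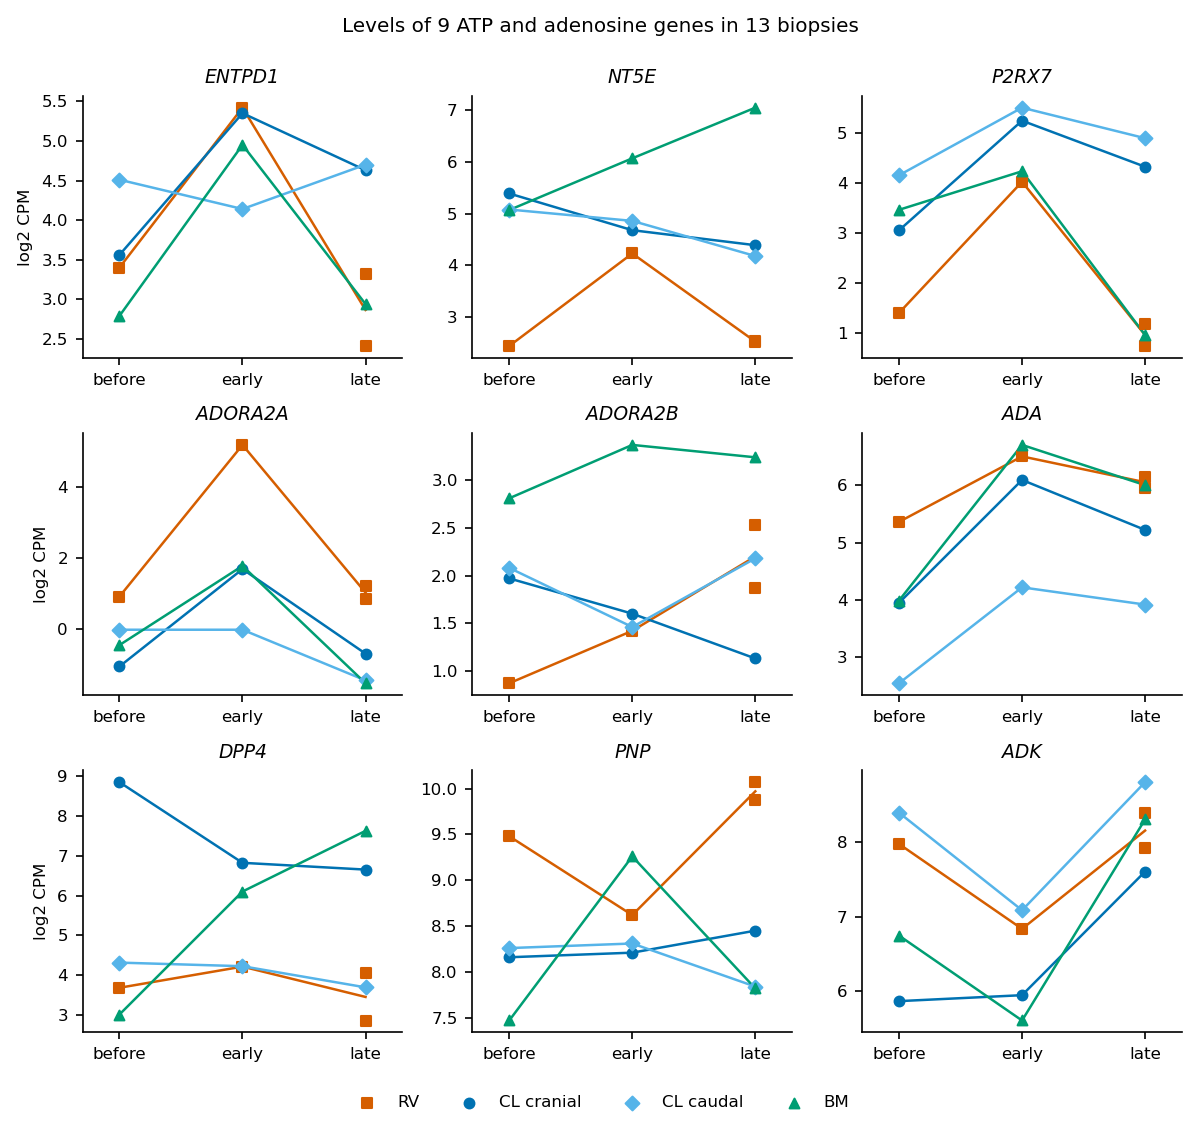
Level of each gene (y axis, log2 CPM with a prior count of 2) before treatment, early and late (x axis); each point is 1 library, colour and shape give the tumor, and lines join the libraries of a tumor through the mean of both late RV sites. ADA was highest early in every tumor and stayed above the level before treatment late; ADK was higher late than early in every tumor, and NT5E and DPP4 took opposite courses in BM and in the CL cranial tumor.

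ENTPD1 (chromosome 28, 9363303 to 9495027, in the RefSeq annotation of UU_Cfam_GSD_1.0) encodes the ectoenzyme that degrades ATP and ADP. Before treatment it was at 10.5 CPM in RV, 11.7 CPM in CL cranial, 22.6 CPM in CL caudal and 6.83 CPM in BM. Early it was at 42.7 CPM in RV, 40.8 CPM in CL cranial, 17.5 CPM in CL caudal and 30.9 CPM in BM, so it was higher in 3 of 4 tumors and lower in CL caudal, and the groups overlapped through that tumor. Late levels were 5.22 CPM at the RV injection site, 9.86 CPM at the RV adjacent site, 24.6 CPM in CL cranial, 25.9 CPM in CL caudal and 7.60 CPM in BM. RV, CL caudal and BM were thus near or under their level before treatment, and CL cranial was above it.

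The fitted log2 fold change of ENTPD1 early against before was 1.57 (SE 0.55, n = 4 tumors, edgeR adjusted p = 0.347), and without the RV tumor it was 1.32. Late against early it was -1.41 (SE 0.51, edgeR adjusted p = 0.116), with a DESeq2 adjusted p of 0.0345. Without RV the late against early value was -0.86, more than 1.5 times smaller. ENTPD1 followed the dendritic cell markers over the 13 libraries, with a Pearson r of 0.92 between ENTPD1 and their summed level after the mean of each tumor was removed; libraries of a tumor are not independent. The r was 0.82 with the neutrophil list and 0.81 with both the macrophage and the T cell lists. The neutrophil list summed to 2190 CPM in CL caudal before treatment, where its member CSF3R was at 2.93 CPM. The T cell list includes CD4, at 516 CPM in the 2-day RV library, where the whole list summed to 566 CPM. The dendritic cell list, of which 7 of 8 genes were in the table, summed to 18.8 to 34.3 CPM before, 20.7 to 86.8 CPM early and 13.8 to 52.3 CPM late. CL caudal was the lowest of the early libraries in both ENTPD1 and this list. It was also the lowest early library in the macrophage list (1220 CPM) and the T cell list (43.3 CPM). In the neutrophil list BM was the lowest (141 CPM). The part of these leukocytes in the ENTPD1 values was not tested.

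NT5E (chromosome 12, 45693314 to 45738560), whose product releases adenosine from AMP, showed no common course. It was at 5.33 CPM in RV, 41.8 CPM in CL cranial, 33.7 CPM in CL caudal and 33.5 CPM in BM before treatment. The early levels were 18.6 CPM in RV, 25.5 CPM in CL cranial, 28.9 CPM in CL caudal and 67.1 CPM in BM. Late it was at 5.63 and 5.68 CPM at the RV sites, 20.8 CPM in CL cranial, 18.0 CPM in CL caudal and 132 CPM in BM. In both CL tumors each later biopsy was lower than the one before it, in BM each was higher, and in RV the early level stood alone, with groups overlapping throughout. In the fit NT5E had a log2 fold change of 0.42 early against before (SE 0.56, n = 4, edgeR adjusted p = 0.763) and turned to -0.14 without RV. Late against early it was -0.51 (SE 0.52, edgeR adjusted p = 0.55), and 0.14 without RV.

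P2RX7 (chromosome 26, 8174038 to 8216804) encodes the ATP-gated channel that drives inflammasome signaling in macrophages. Before treatment it was at 2.53 CPM in RV, 8.18 CPM in CL cranial, 17.7 CPM in CL caudal and 10.9 CPM in BM. The early levels were 16.2 CPM in RV, 37.8 CPM in CL cranial, 45.1 CPM in CL caudal and 18.7 CPM in BM. P2RX7 was higher early in every tumor, by 2.63, 2.19, 1.35 and 0.77 on the log2 CPM scale in that order, but the lowest early library (RV) lay under the highest library before treatment (CL caudal).

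Late, P2RX7 was at 2.17 CPM at the RV injection site, 1.57 CPM at the RV adjacent site, 19.9 CPM in CL cranial, 29.5 CPM in CL caudal and 1.85 CPM in BM. It was lower than early in all 4 tumors, and only the CL tumors remained above their own level before treatment. The fitted log2 fold change was 1.72 early against before (SE 0.63, n = 4, edgeR adjusted p = 0.369) and -1.92 late against early (SE 0.59, edgeR adjusted p = 0.0845; DESeq2 adjusted p = 0.0115). Without RV these were 1.32 and -1.31. With tumor means removed, P2RX7 had a Pearson r of 0.81 with the dendritic cell list, 0.75 with the T cell list, 0.64 with the neutrophil list, 0.52 with the macrophage list and -0.66 with the fibroblast list over 13 libraries, and the part of these cells was not tested.

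Across all genes, 10.8% were higher early than before in all 4 tumors, and among the 9 described here ADA and P2RX7 were. Without RV, 15.6% of genes were higher in the 3 mammary tumors, and ADA, P2RX7 and PNP were. For 2.71% of genes every early library lay above every library taken before, and 0 of the 9 genes were among them.

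ADORA2A (chromosome 26, 28226384 to 28244417) encodes the high-affinity adenosine receptor of T cells and neutrophils. It had few reads, with 4 to 94 counts per library outside the 2-day RV library and 639 counts in that one. Before treatment it was at 1.80 CPM in RV, 0.387 CPM in CL cranial, 0.897 CPM in CL caudal and 0.639 CPM in BM. Early it was at 35.9 CPM in RV, 3.14 CPM in CL cranial, 0.896 CPM in CL caudal and 3.34 CPM in BM. It was thus higher in 3 tumors and level in CL caudal, and the RV library was far above all others.

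The late levels of ADORA2A were 2.24 and 1.69 CPM at the RV injection and adjacent sites, 0.524 CPM in CL cranial, 0.273 CPM in CL caudal and 0.252 CPM in BM. All 4 tumors were lower late than early, by 4.14, 2.38, 1.42 and 3.29 on the log2 CPM scale for RV, CL cranial, CL caudal and BM. In the fit ADORA2A had a log2 fold change of 2.50 early against before (SE 0.75, n = 4, edgeR adjusted p = 0.269; DESeq2 adjusted p = 0.00778) and -3.30 late against early (SE 0.68, edgeR adjusted p = 0.0603; DESeq2 adjusted p = 5.07e-05). Without RV these were 1.81 and -2.79, with edgeR adjusted p of 0.784 and 0.275.

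Neutrophil markers were high in some of the libraries with much ADORA2A and not in others. CSF3R, the receptor for granulocyte colony-stimulating factor, was at 723 CPM in the 2-day RV library, 88.9 CPM in CL cranial early and 11.8 CPM or less in the other 11. CD4, which dog neutrophils carry as well as helper T cells, was at 516 CPM in the 2-day RV library, while CD3E of the T cell receptor complex was at 8.20 CPM there. The T cell list, which holds CD4, summed to 566 CPM in that library. In CL cranial early CD3E was at 44.0 CPM. In BM, CSF3R was at 11.8 CPM before and 7.24 CPM early and CD4 at 11.1 and 9.05 CPM. The summed neutrophil list was higher early in BM, at 141 CPM against 65.0 CPM before, as was ADORA2A, at 3.34 against 0.639 CPM. In CL caudal that list was at 2190 CPM before and 158 CPM early, while its member CSF3R was at 2.93 and 3.91 CPM. With tumor means removed, ADORA2A had a Pearson r of 0.77 with the neutrophil list, 0.76 with the dendritic cell list, 0.72 with the T cell list and 0.71 with the macrophage list over 13 libraries, and the part of each cell type was not tested.

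ADORA2B (chromosome 5, 40102972 to 40126790), the lower-affinity receptor, had 24 to 289 counts per library. It was at 1.73, 3.82, 4.13 and 6.92 CPM before treatment in RV, CL cranial, CL caudal and BM, and at 2.58, 2.94, 2.65 and 10.3 CPM early in the same order. Late it was at 5.70 and 3.57 CPM at the RV injection and adjacent sites, 2.10 CPM in CL cranial, 4.43 CPM in CL caudal and 9.32 CPM in BM. BM was highest at each time, and the order of the times differed between tumors. For ADORA2B the fit gave a log2 fold change of -0.02 early against before (SE 0.55, n = 4, edgeR adjusted p = 0.993) and 0.36 late against early (SE 0.54, edgeR adjusted p = 0.686).

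ADA (chromosome 24, 32708375 to 32739510) encodes adenosine deaminase, whose inherited loss causes severe combined immunodeficiency in humans. Before treatment it was at 40.9 CPM in RV, 15.4 CPM in CL cranial, 5.74 CPM in CL caudal and 15.8 CPM in BM. Early it was at 90.6 CPM in RV, 68.0 CPM in CL cranial, 18.6 CPM in CL caudal and 104 CPM in BM. The early library was the highest of its tumor in all 4, and the groups overlapped because CL caudal early lay between the CL cranial and RV levels before treatment.

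Late, ADA was at 70.7 CPM at the RV injection site, 61.7 CPM at the RV adjacent site, 37.2 CPM in CL cranial, 15.1 CPM in CL caudal and 63.7 CPM in BM. On the log2 CPM scale, late minus before was 0.69 in RV, 1.27 and 1.38 in the cranial and caudal CL tumors and 2.01 in BM. Late minus early was -0.46 in RV, -0.87 and -0.30 in the cranial and caudal CL tumors and -0.70 in BM. A late level above the one before treatment in all 4 tumors is what chose the genes; 7.13% of all genes had it, and of the 9 genes ADA and ADK did. In the 3 mammary tumors alone 14.2% of genes had it, and ENTPD1 joined ADA and ADK.

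The fitted log2 fold change of ADA early against before was 1.90 (SE 0.34, n = 4), a 3.74-fold higher level, given without a test because it shares the libraries taken before treatment with the comparison that chose the genes. It was between 1.55 and 2.19 when each tumor was left out in turn, with 2.19 without RV, and DESeq2 gave 1.88. Late against early the fitted value was -0.63 (SE 0.31), given without a test because the late levels entered the choice of genes.

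ADA moved with the macrophage list within tumors (Pearson r = 0.87 with tumor means removed, 13 libraries), and the r without that step was 0.38. The scavenger receptor CD163, which marks macrophages, was at 23.1 to 62.0 CPM before, 196 to 393 CPM early and 29.6 to 64.9 CPM late. It was at 60.1 CPM late against 23.1 CPM before in BM and at 64.9 against 62.0 CPM in CL caudal. The whole macrophage list summed to 900 CPM late against 742 CPM before in CL caudal, and 10 of its 10 genes were higher late than before in the fit. In RV that list was at 367 CPM (injection site) and 430 CPM (adjacent site) late against 428 CPM before. Endothelial markers, at 44.2 to 164 CPM before, 120 to 1640 CPM early and 54.8 to 267 CPM late, had an r of 0.74 with ADA with tumor means removed. The T cell list had an r of 0.69 with ADA with tumor means removed and 0.64 without that step. Late against before it was at 144 against 33.1 CPM in CL cranial, 97.9 against 20.8 CPM in CL caudal and 76.9 against 52.8 CPM in BM. In RV it was at 55.8 CPM (injection site) and 44.9 CPM (adjacent site) late against 48.2 CPM before. The part of macrophages, of endothelium and of T cells in the ADA values was not tested.

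**Figure D2:**
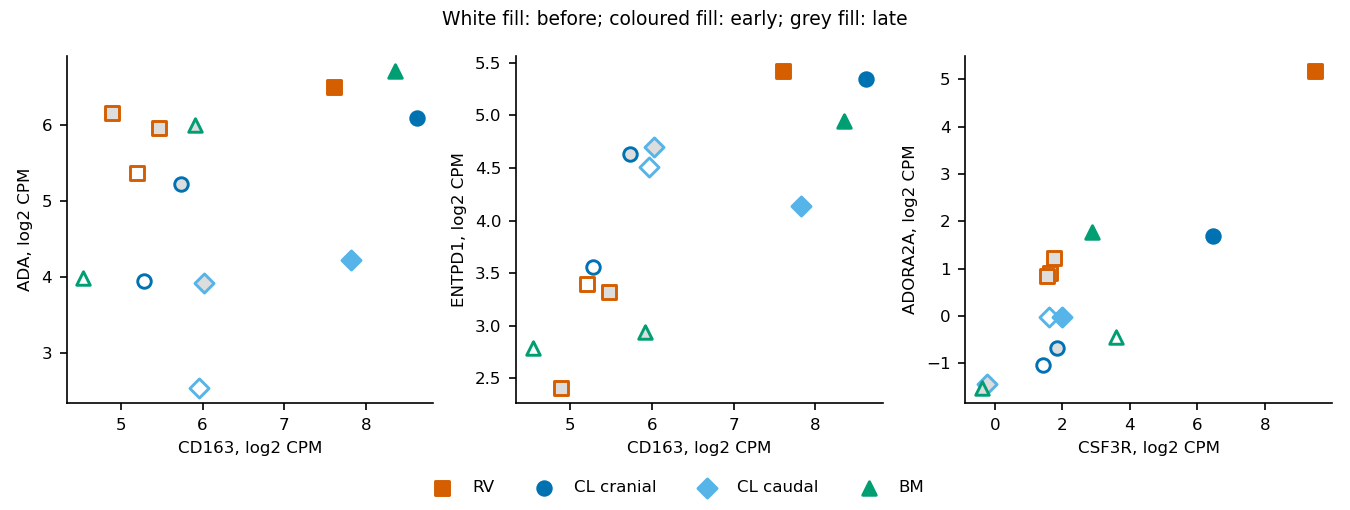
ADA and ENTPD1 against the macrophage marker CD163, and ADORA2A against the neutrophil marker CSF3R (both axes log2 CPM); each point is 1 of 13 libraries, shape and outline colour give the tumor, and white, coloured and grey fill give before, early and late. CD163 separated early from other libraries, CD163 in CL caudal was at 5.96 before and 6.02 late while ADA lay higher late, and the 2-day RV library was highest in both CSF3R and ADORA2A. The summed macrophage list in CL caudal, not shown, was at 742 CPM before and 900 CPM late.

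DPP4 (chromosome 36, 7695776 to 7774177), a surface peptidase to which ADA binds in several mammals, had the widest spread of differences between tumors among the 9 genes (SD of late minus before 2.93 on the log2 CPM scale, n = 4). Before treatment it was at 12.8 CPM in RV, 460 CPM in CL cranial, 19.9 CPM in CL caudal and 8.03 CPM in BM. The early levels were 18.6 CPM in RV, 113 CPM in CL cranial, 18.7 CPM in CL caudal and 68.7 CPM in BM. Late it was at 7.19 CPM at the RV injection site, 16.5 CPM at the RV adjacent site, 101 CPM in CL cranial, 12.9 CPM in CL caudal and 196 CPM in BM.

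CL cranial and BM thus moved in opposite directions, by -2.19 and 4.60 on the log2 CPM scale from before to late, and the other tumors moved by less than 1. For DPP4 the fit gave a log2 fold change of -0.22 early against before (SE 0.84, n = 4, edgeR adjusted p = 0.922) and 0.14 late against early (SE 0.76, edgeR adjusted p = 0.921). Without CL cranial the early value was 0.65. Fibroblast markers reached 100000 CPM in sum in BM late against 20100 CPM or less before treatment, and DPP4 had a Pearson r of 0.74 with that list with tumor means removed; the part of fibroblasts was not tested.

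PNP (chromosome 15, 17932170 to 17939749), purine nucleoside phosphorylase, acts on the inosine that ADA makes. It was at 716, 285, 306 and 177 CPM before treatment in RV, CL cranial, CL caudal and BM, and at 394, 296, 318 and 613 CPM early. Late it was at 1074 CPM at the RV injection site, 933 CPM at the RV adjacent site, 351 CPM in CL cranial, 230 CPM in CL caudal and 226 CPM in BM. The CL tumors hardly moved early, by 0.06 (cranial) and 0.05 (caudal) on the log2 CPM scale, while BM was higher by 1.79 and RV was at -0.86. For PNP the fit gave a log2 fold change of 0.37 early against before (SE 0.48, n = 4, edgeR adjusted p = 0.757), and -0.29 without BM. Late against early it was -0.10 (SE 0.48, edgeR adjusted p = 0.91).

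ADK (chromosome 4, 25272740 to 25780743), adenosine kinase, was the one of the 9 genes whose early and late libraries did not overlap. It was at 252 CPM in RV, 58.4 CPM in CL cranial, 337 CPM in CL caudal and 108 CPM in BM before treatment. The early levels were 115 CPM in RV, 61.7 CPM in CL cranial, 136 CPM in CL caudal and 48.8 CPM in BM, lower in 3 tumors and level in CL cranial. Late it was at 336 CPM at the RV injection site, 244 CPM at the RV adjacent site, 196 CPM in CL cranial, 448 CPM in CL caudal and 317 CPM in BM. Each late library lay above each early library, which held for 5.74% of all genes.

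The fitted log2 fold change of ADK was -0.91 early against before (SE 0.39, n = 4, edgeR adjusted p = 0.443) and 1.79 late against early (SE 0.38, edgeR adjusted p = 0.0603; DESeq2 adjusted p = 0.000162), where 0.00994% of genes passed the threshold in edgeR and 23.9% in DESeq2. Without RV these were -0.80 and 2.02. ADK moved with the share of counts from ribosomal protein genes, 3.50% to 17.8% over the libraries (Pearson r = 0.69, and 0.63 with tumor means removed, 13 libraries), and, with tumor means removed, against the endothelial list (-0.72) and that of smooth muscle and myoepithelium (-0.73). That share was 3.50% to 7.64% in the early libraries and 7.92% to 14.4% in the late ones. In RV and CL caudal both the share and ADK were lower early than before. BM departed from this, with a share of 5.70% before, 7.64% early and 7.92% late. So did CL cranial, with a share of 7.02% before and 5.11% early while ADK was at 58.4 and 61.7 CPM. The part of RNA composition and of these cells in the ADK values was not tested.

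In the comparison of late with early libraries, ADA, ADORA2A and P2RX7 were lower in all 4 tumors, beside 17.4% of all genes, and ADK was higher in all 4, beside 12.9%. Unadjusted p-values under 0.05 in edgeR were reached by ENTPD1, ADORA2A and P2RX7 on the lower side and by ADK on the higher, and by 26.6% of all genes (17.7% lower and 8.87% higher). DESeq2 called the same 4 genes, beside 23.9% of all genes. With both late RV sites summed, the edgeR adjusted p was 0.153 for ADORA2A and for ADK, 0.191 for P2RX7 and 0.237 for ENTPD1. The median fitted log2 fold change of the 9 genes was -0.51, beside -0.35 over all tested genes. For late against before it was 0.16, beside -0.05.

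**Figure D3:**
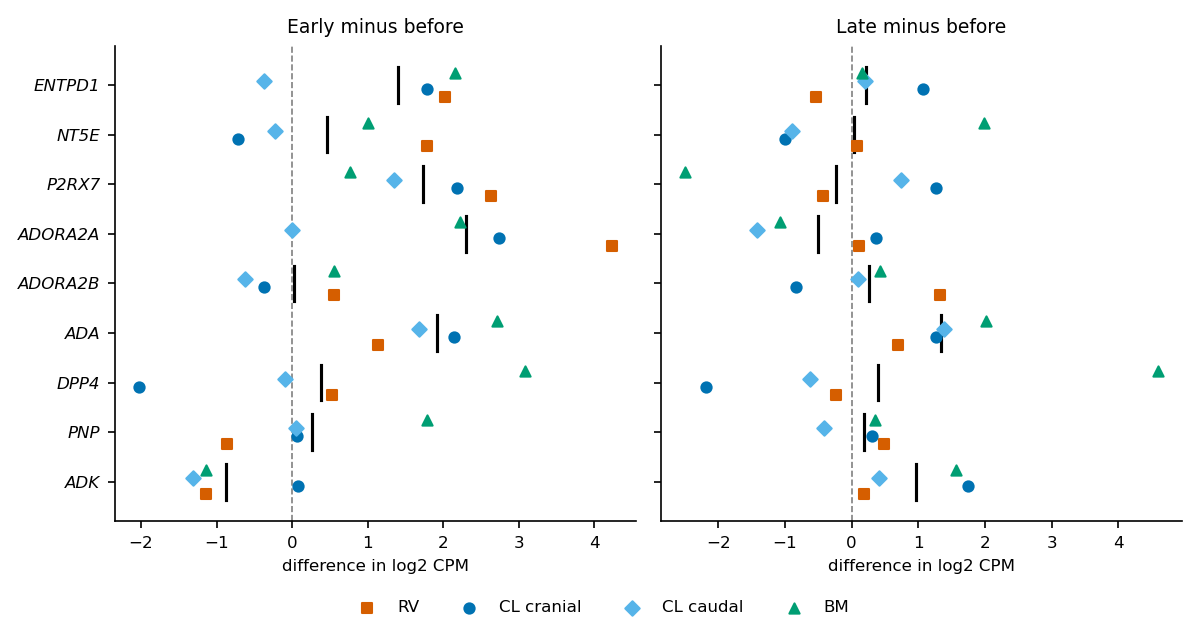
Difference in log2 CPM within each tumor (x axis), early minus before on the left and late minus before on the right, with 1 point per tumor (mean of both late RV sites), a black bar for the mean of the 4 tumors and a dashed line at 0. ADA and P2RX7 lay right of 0 in all 4 tumors early, ADA and ADK late, and DPP4 spanned -2.19 to 4.60 late.

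A further 56 genes, listed by symbol for purine release, sensing, transport and breakdown, were examined, of which 53 were in the table and 48 were tested. In edgeR 0 of 48 passed the adjusted threshold in any of the comparisons. DESeq2 called 6 of 48 early, beside 4.75% of all genes, and 14 of 48 late against early, beside 23.9%. At an unadjusted p under 0.05 in edgeR, 11 were higher and 0 lower early, beside 7.70% and 3.16% of all genes. The median early log2 fold change of the 48 was 0.91, and 34 of 48 lay above 0, beside 60.3% of all genes. Late against before 0 of 48 reached an unadjusted p under 0.05 in edgeR, beside 4.0% (805) of all genes, and 0 of 48 were called by DESeq2, beside 0.0348%. Late against early 16 of 48 reached an unadjusted p under 0.05, beside 26.6% of all genes, and the median was -0.74 with 13 of 48 above 0, beside 38.8% of all genes. Late against before the median was -0.01 with 23 of 48 above 0, beside 46.9% of all genes.

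Among receptors, P2RX4, an ATP-gated channel of macrophages, was at 26.2, 20.6, 31.1 and 19.3 CPM before treatment in RV, CL cranial, CL caudal and BM and at 114, 79.1, 40.5 and 66.1 CPM early. Each early library lay above each library taken before, which held for 6 of the 48 pathway genes, beside 2.71% of all genes. Its fitted early log2 fold change was 1.57 (SE 0.45, edgeR adjusted p = 0.248). P2RY13, an ADP receptor of myeloid cells, was at 0.666 to 2.42 CPM before and 3.19 to 20.7 CPM early (3.07, SE 0.91, edgeR adjusted p = 0.264), and P2RY6, a UDP receptor, at 1.07 to 4.07 CPM before and 4.85 to 7.76 CPM early (1.64, SE 0.62, edgeR adjusted p = 0.388). P2RX1 and P2RY10, the latter listed by its symbol alone, were also higher early in all 4 tumors, beside 10.8% of all genes. So was ADORA1, which stayed at 1.24 CPM or less before and early.

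Among enzymes and transporters, ENTPD3, a relative of ENTPD1, was at 1.80 CPM in RV, 4.21 CPM in CL cranial, 22.8 CPM in CL caudal and 24.8 CPM in BM before treatment, and at 82.1, 63.9, 33.8 and 76.2 CPM early. Its early libraries all lay above those taken before, beside 2.71% of all genes. The fitted log2 fold change of ENTPD3 was 3.30 (SE 1.05, edgeR adjusted p = 0.296). XDH, xanthine dehydrogenase, which completes purine breakdown to uric acid, was at 2.0 to 34.3 CPM before, 28.1 to 85.1 CPM early and 4.21 to 15.0 CPM late. Its log2 fold change was 2.16 early (SE 0.61, edgeR adjusted p = 0.242) and -2.73 late against early (SE 0.55, edgeR adjusted p = 0.0603). SLC29A3, a lysosomal nucleoside transporter, was at 10.1 to 17.1 CPM before and 18.6 to 53.1 CPM early. ABCC6, a liver and kidney transporter linked to ATP release, was also higher early in all 4 tumors, at 7.35 CPM or less, and ENPP1 was lower in all 4, beside 7.85% of all genes. NT5C2 was lower in 3 tumors and level in BM, at 108.3 CPM before and 108.0 CPM early.

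Late, P2RX4, ADA2 and HPRT1 were higher than before in all 4 tumors, beside 7.13% of all genes, and ABCC6 and AMPD1 were lower, beside 8.04% of all genes. For P2RX4, ADA2 and ABCC6 this rested on the mean of both RV sites. P2RX4 was at 26.1 CPM at the adjacent site against 26.2 CPM before, and ADA2 at 5.56 CPM at the injection site against 5.80 CPM before. ABCC6 was at 0.136 CPM at the injection site against 0.133 CPM before, with 2 counts in each. The late libraries held only 0 to 5 counts of ABCC6 and 0 to 4 of AMPD1, so their lower late levels rest on few reads. ADA2, the secreted deaminase of myeloid cells, was at 4.0 to 14.4 CPM before, 12.6 to 25.4 CPM early and 5.56 to 26.0 CPM late (0.94 late against before, SE 0.47, edgeR adjusted p = 0.973). HPRT1, which salvages hypoxanthine, was at 50.9 to 143 CPM before and 147 to 205 CPM late, with no overlap, beside 0.293% of all genes (0.72, SE 0.34, edgeR adjusted p = 0.973). Like ADK, HPRT1 was higher late than early in every tumor (1.36, SE 0.34, edgeR adjusted p = 0.0637). So were ENPP1, APRT, NME1 and NME2, beside 12.9% of all genes. A further 10 pathway genes were lower late than early in every tumor, beside 17.4% of all genes.

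**Figure D4:**
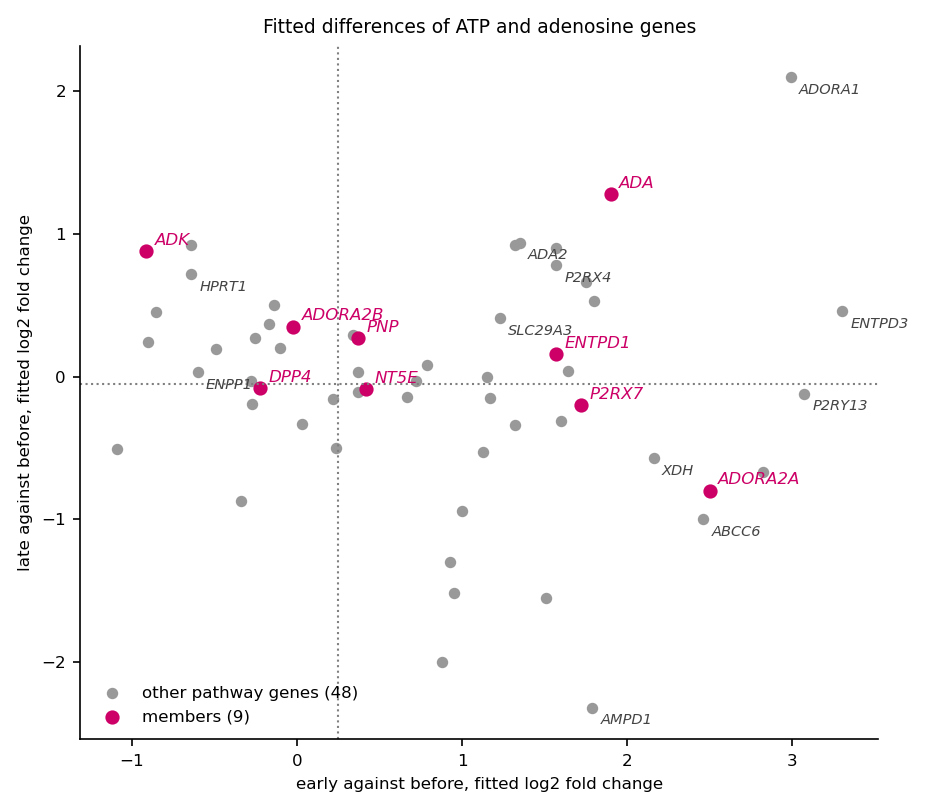
Fitted log2 fold change early against before (x axis) and late against before (y axis) for the 9 genes (pink, named) and 48 other pathway genes (grey, some named); both axes share the libraries taken before treatment, and dotted lines mark the medians of all tested genes, 0.25 and -0.05. ADA lay at 1.90 and 1.28, and ADORA2A and P2RX7, at 2.50 and 1.72 early, lay under 0 late.

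Genes among those whose log2 CPM followed each of the 9 most closely over the 13 libraries are a description, since libraries of a tumor share a host and mass. For ADA they were METRNL (Pearson r = 0.96), ERG (0.93) and LGMN (0.92), with r of 0.93, 0.89 and 0.87 when tumor means were removed. ENTPD1 ran with JAML (0.97), GPR65 (0.96) and LPXN (0.94), ADK with LDHA (0.97), RNF139 (0.95) and YPEL5 (0.94), and PNP with CXCL12 (0.95), SEMA3D (0.94) and KRT222 (0.93). NT5E ran with GNAS (0.96) and PCDH18 (0.94), and P2RX7 with DOCK8, DSCAML1 and MREG (all 0.93). ADORA2A ran with NCR1 (0.94), CEACAM28 (0.93) and ACACB (0.92), DPP4 with SLC6A7 (0.89), ACSL5 and NPC1L1 (both 0.87), and ADORA2B with ATOH8 (0.83) and HOXC10 (0.78). With tumor means removed these r were 0.41 and 0.58 for ADORA2B, 0.81, 0.67 and 0.74 for DPP4 and 0.82 and 0.78 for NT5E, and 0.83 to 0.98 for the genes named beside the others. Between members, with tumor means removed, the closest were ADORA2A with P2RX7 (r = 0.87) and ENTPD1 with ADORA2A (r = 0.85), and ADORA2A with ADK was the most opposed (r = -0.71).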

How the data were processed

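The 13 strand-specific libraries were aligned by the authors to CanFam4.0 with Strand NGS, and raw counts per gene symbol were deposited by the authors; the counting rule and annotation release are not given in the sources used here. Libraries were grouped by the labelled tumor and time. Genes were filtered with filterByExpr (minimum count 10) and fitted with TMM and edgeR 4.0.16 (glmQLFit, robust) on tumor and time over all 13 libraries, with Benjamini-Hochberg adjustment over 20118 genes at a threshold of 0.05. The model left 7 residual degrees of freedom at a biological coefficient of variation of 0.672. DESeq2 1.42.0 (R 4.3.3) was an alternative. Log2 CPM used a prior count of 2, and log2 of summed marker CPM plus 1 entered the correlations. Scripts were tested on simulated data without tumor effects. With every gene at the common spread of these libraries, edgeR missed the planted changes and a large part of DESeq2's calls were false. Real genes differ in spread, so these rates need not hold for the genes described. Neither a missed edgeR threshold nor a DESeq2 call is taken here to settle a difference. Coordinates came from RefSeq (98.0% of symbols matched); no gene sequences or exon lengths were used here, so levels of different genes were not compared.

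The pairing comes from the tumor, as a tumor's libraries came from repeated biopsies of one mass. Deviations from group means correlated within tumors with a mean r of 0.23 between before and early, 0.59 between before and late and 0.19 between early and late, against -0.07, -0.20 and -0.07 between tumors. No library copied another (the chi-square of their counts was never under 44.5 per degree of freedom). The genes and lists, including 12 marker lists, were chosen with earlier results of these data known. Other pathway genes were named where they moved the same way in all 4 tumors early or late against before, or were higher late than early in all 4. The 3 genes most similar to each member were named by Pearson r, apart from some that are not reported here. The depth, 11622444 to 29931125 counts per library, limits genes with few reads such as ADORA2A.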

Additional observations from a re-analysis of the deposited data

Results flagged for a closer look

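NT5E before treatment was far lower in RV, at 2.44 log2 CPM, than in the 3 mammary tumors, at 5.07 to 5.39 log2 CPM. ADORA2B early was far higher in BM, at 3.37 log2 CPM, than in the other tumors, at 1.42 to 1.60 log2 CPM. These were the libraries that stood away from the rest of their group by Dixon's criterion among 27 gene groups examined, where chance flags about 1 in 20 groups, or 1.35 here. PNP early against before was -0.86 on the log2 CPM scale in RV and above 0 in each of the 3 mammary tumors, and the difference between the tumor types was not tested. ENTPD1 late against before was -0.54 in RV and above 0 in each of the 3 mammary tumors, which was not tested either. RV is the only sarcoma, from a dog of its own, so tumor type and dog cannot be told apart for NT5E, and for PNP and ENTPD1 its sampling times differed as well.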

How the results depend on the processing

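The calls of edgeR depended on the settings, while the values of ADA, ENTPD1, ADORA2A, P2RX7 and ADK kept their direction early and late against early in every alternative. Early against before, 1 gene was called, and 0 under DESeq2's size factors, without the tumor block, with the dog as replicate block, with late RV sites summed, with the libraries of both groups alone and in each fit that left out a tumor (0 to 0). It was 17 without the filter on low counts and 956 by DESeq2, with ADORA2A among the latter. No call is given there for ADA, whose levels before treatment entered the choice of genes. Late against early, 2 genes were called, and 0 without the replicate block, with the dog block, RV sites summed, both groups alone or a tumor left out (0 to 0); 1081 without the filter, with 2 of the 9 genes (ADORA2A, ADK), and 4809 by DESeq2, with 4. Late against before it was 0, and 7 by DESeq2. With the RV adjacent site alone, 1 of the 9 genes (ADA) was higher late in all 4 tumors in place of 2. Directions turned early for NT5E without RV (-0.14), for DPP4 with both groups alone (0.33) or without CL cranial (0.65), for ADORA2B without the block (0.15), with both groups alone (0.03), without CL cranial (0.14) or CL caudal (0.18), and for PNP without BM (-0.29). Late against early they turned for NT5E without the block (0.06) or RV (0.14), for DPP4 with both groups alone (-0.10) or without BM (-0.36), and for PNP without the block (0.47), CL caudal (0.01) or BM (0.53). With each tumor left out in turn, early values ran from -0.14 to 0.87 for NT5E, -0.71 to 0.65 for DPP4, -0.32 to 0.18 for ADORA2B and -0.29 to 0.67 for PNP, and late against early from -0.92 to 0.14 for NT5E, -0.36 to 0.53 for DPP4 and -0.61 to 0.53 for PNP. The cause was not tested. Over the alternatives the adjusted p of ADORA2A ran from 0.00778 to 0.806 early and from 5.07e-05 to 0.275 late against early, and that of ADK late against early from 0.000162 to 0.275, lowest by DESeq2. Of 45 alternative lists of most similar genes, 40 kept under 2 of the 3 genes.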

Other observations

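Of the 12 marker lists, none had a gene at 0 in every library. T cell markers (10 genes in the table) summed to 20.8 to 52.8 CPM before, 43.3 to 566 CPM early and 44.9 to 144 CPM late, and B and plasma cell markers (8 genes) to 83.9 to 649, 54.5 to 827 and 69.3 to 1410 CPM. The 566 CPM of the T cell list came from the 2-day RV library, where CD4 of that list was at 516 CPM. Neutrophil markers (8 genes) were at 56.6 to 2190, 141 to 7150 and 55.9 to 984 CPM, and epidermal ones (8 of 9 genes) at 39.0 to 150, 32.8 to 2120 and 26.6 to 55.4 CPM. Epithelial markers (7 genes) were at 329 to 5060, 133 to 3070 and 199 to 3730 CPM, fibroblast markers (7 genes) at 1210 to 20100, 1550 to 27000 and 1800 to 100000 CPM, and those of smooth muscle and myoepithelium (6 genes) at 213 to 1510, 230 to 2360 and 173 to 1010 CPM. Bone-forming markers (6 genes) were at 90.7 to 239, 88.7 to 234 and 128 to 391 CPM, and markers of dividing cells (6 genes) at 89.9 to 484, 112 to 219 and 85.4 to 582 CPM.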
